A study of Mus musculus with 6 samples.

Results

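RefilinB, the filamins it binds and the scaffold proteins of focal adhesions were followed through 9 genes of an RNA-seq count table from mouse fibroblasts treated with TGFβ. The genes are *Rflnb*, *Flna*, *Flnc*, *Actn1*, *Vcl*, *Zyx*, *Tln1*, *Pxn* and *Ilk*, taken by their symbols from the 25140 genes listed, and each of the 9 passed the filter on low counts that left 14334 genes. They were proposed with results of this same comparison in view, so their differences are described, and the calls given for them come from the fit across all genes and support nothing.

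RefilinB, encoded by *Rflnb*, is a short protein that binds filamins and turns filamin A from a protein that crosslinks actin filaments into a mesh into one that bundles them. Focal adhesions are the plaques where integrins, the receptors for extracellular matrix, are tied to actin stress fibers. In them talin binds the integrin tail, vinculin reinforces the link from talin to actin, paxillin and integrin-linked kinase gather signaling partners, and zyxin and α-actinin sit where the stress fiber enters the plaque. Fibroblasts that become myofibroblasts, the contractile matrix-producing cells of scars, build thick stress fibers and large adhesions.

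The libraries came from fibroblasts that GEO's labels describe as primary cells of the adult heart of C57BL/6 mice at passage 1. They were grown in DMEM with 25 mM glucose, 10% FBS and 1% of an antibiotic mix, and FBS was lowered to 1% before treatment, for 16 h by GEO's labels and for 24 h by the study's methods, which also keep it at 1% during treatment. 3 libraries were made from cells given vehicle and 3 from cells given TGFβ at 10 ng/mL for 24 h. The labels give the same other culture conditions for both groups. Polyadenylated RNA was sequenced as single-end reads of 75 bases. The study's methods name 3 biological replicates per group, and nothing states that these were separate animals, so p-values measure the spread between these libraries. The age and sex of the mice and the number pooled were not given in the sources used here, and the results text of the study calls the cells MEFs (mouse embryonic fibroblasts).

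The libraries held 27851677 to 31072338 counts. The columns of the table carry no replicate number, so the libraries are called A, B and C within each group, in the order of the columns, and no label says that a vehicle and a TGFβ library of the same letter belong together. Even so, libraries of the same letter deviated together from their group means, with correlations of log2 CPM of 0.511 (A), 0.551 (B) and 0.622 (C) over 10373 genes. For different letters they were -0.413 to -0.0524, but deviations from a group mean cancel out within the group. Positive values for the same letter thus make those for different letters negative as a set. A fit with the letter as a block, chosen after seeing the data, is therefore given beside *Flnc*, the talin list and the markers of other cells, and all values without such a remark come from the fit without it. It called 52.3% of all genes tested, 26.0% as higher and 26.3% as lower with TGFβ. No library was a copy of another in its group, since replicate counts differed by a chi-square of 7.95 to 27.1 per gene. Cardiac fibroblast markers were present, with the transcription factor *Tcf21* at 303.4 ± 3.54 CPM (SD, n = 3) in vehicle, and the 6 listed genes of 8 trunk and limb Hox genes summed to at most 0.877 CPM in any library. *Acta2*, the smooth muscle actin of myofibroblasts, rose with TGFβ by 1.03 on the log2 scale (standard error 0.08, edgeR quasi-likelihood test, Benjamini-Hochberg adjusted p = 6.93e-05). Across all genes tested, 40.7% passed an adjusted p of 0.05 in this test, 20.5% as higher and 20.1% as lower with TGFβ, and the median log2 fold change was -0.0013.

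The sequences just before the starts of 3 of the genes are shown because these genes mark the ends of the range: *Rflnb* and *Actn1* had the largest differences and *Vcl* one of the smallest. Each is the 250 bases before the RefSeq start in GRCm38.p6, written 5′ to 3′ on the strand of the gene. *Rflnb* lies at chr11:76027783-76028032 (minus strand), *Actn1* at chr12:80260364-80260613 (minus strand) and *Vcl* at chr14:20929148-20929397 (plus strand). Capitals mark matches on either strand to 5 motifs, with overlapping matches counted apart: the CArG box read by serum response factor, GGAATG (TEAD factors), TGANTCA (AP-1), CAGAC (SMAD proteins) and GGGCGG (Sp1).
Rflnb: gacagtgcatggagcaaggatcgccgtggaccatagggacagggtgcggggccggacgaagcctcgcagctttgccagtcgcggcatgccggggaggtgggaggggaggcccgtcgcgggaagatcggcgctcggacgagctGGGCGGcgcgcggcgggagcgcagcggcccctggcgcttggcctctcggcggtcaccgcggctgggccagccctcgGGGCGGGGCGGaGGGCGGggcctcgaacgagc
Actn1: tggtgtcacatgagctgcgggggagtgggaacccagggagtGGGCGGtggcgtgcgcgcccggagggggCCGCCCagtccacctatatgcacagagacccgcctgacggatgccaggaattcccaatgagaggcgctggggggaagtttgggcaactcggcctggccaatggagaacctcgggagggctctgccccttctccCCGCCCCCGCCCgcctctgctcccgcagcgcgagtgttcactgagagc
Vcl: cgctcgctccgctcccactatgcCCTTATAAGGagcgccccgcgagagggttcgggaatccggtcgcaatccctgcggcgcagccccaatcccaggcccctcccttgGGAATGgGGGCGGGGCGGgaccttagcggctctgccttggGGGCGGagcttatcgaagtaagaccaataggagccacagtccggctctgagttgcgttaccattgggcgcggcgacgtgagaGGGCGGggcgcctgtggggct

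The *Rflnb* window held 4 matches to GGGCGG and none to the other 4 motifs, and so did the *Actn1* window. The *Vcl* window held a CArG box that begins 227 bases before the start, the first run of capitals in its line, beside 1 GGAATG and 4 GGGCGG. Among all 32851 promoter windows of this length in the RefSeq table, the CArG box was found in 1.47%, GGAATG in 12.6%, TGANTCA in 6.75%, CAGAC in 42.2% and GGGCGG in 32.7%. Of the 9 genes, 8 had an entry in that table, with 10 starts, and *Pxn* had none. *Vcl* was the one gene of the 8 with a CArG box, TGANTCA occurred in *Zyx* alone, CAGAC in *Zyx* and *Tln1*, and GGAATG in *Vcl*, *Flna* and 1 of the 2 starts of *Flnc*. These matches describe the letters of the windows, not binding.

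Values are given as CPM, each gene's counts over its library's total, on edgeR's usual scale with TMM factors, and a log2 fold change is TGFβ over vehicle from the edgeR fit across all 14334 genes. Of the 9 genes, 5 passed the adjusted p of 0.05 as higher with TGFβ (*Rflnb*, *Actn1*, *Zyx*, *Flna* and *Ilk*), against 20.5% of all genes tested, and 0 passed as lower. The same 5 were the genes whose TGFβ libraries all lay above their vehicle libraries, against 27.2% of all genes tested (a further 26.1% lay wholly below, 53.3% in either direction), while the groups of the other 4 (*Flnc*, *Vcl*, *Tln1* and *Pxn*) overlapped. Since the genes were chosen on this comparison, nothing is read from these shares. The gene lists below were also chosen with earlier results of these data known, so their counts are likewise a description. The median log2 fold change of the 9 was 0.19, and the middle 50% of all genes tested ran from -0.242 to 0.183. The values measure mRNA of a whole culture, in which fewer cells of a type and less RNA per cell cannot be told apart.

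**Figure D1:**
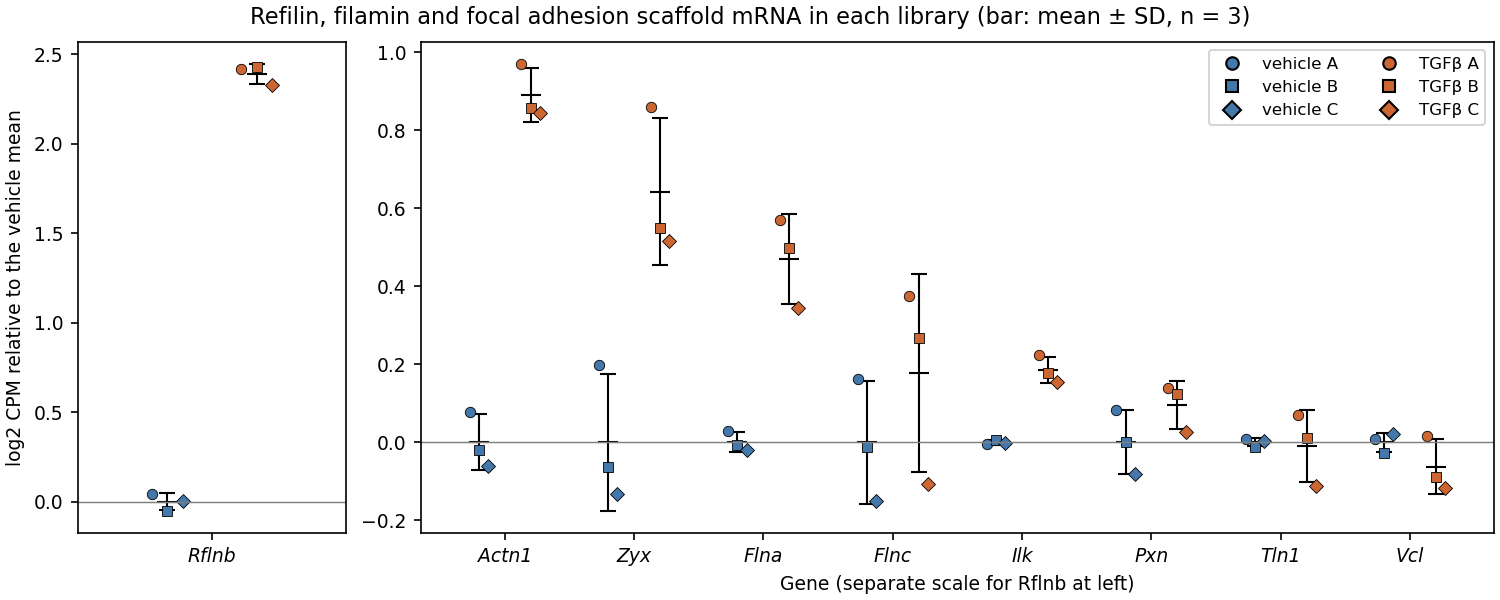
log2 CPM of each of the 9 genes (x axis) in each library, relative to the mean of the vehicle libraries (y axis), with the mean ± SD of 3 libraries as bars and *Rflnb* on a scale of its own at left. The TGFβ points of *Rflnb*, *Actn1*, *Zyx*, *Flna* and *Ilk* lie above all vehicle points, and those of *Flnc*, *Pxn*, *Tln1* and *Vcl* mix with them.

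*Rflnb* (ENSMUSG00000020846, chromosome 11, 76019194 to 76027782, minus strand, in GRCm38 with the GENCODE M21 annotation) had the largest difference of the 9. It was at 62.5, 58.5 and 60.7 CPM in vehicle libraries A, B and C and at 323.5, 325.9 and 304.1 CPM in TGFβ libraries A, B and C. The lowest TGFβ library thus stood far above the highest vehicle library, and the spread within each group was small, with coefficients of variation of 3.29% and 3.78%. The means were 60.6 ± 1.99 and 317.8 ± 12.0 CPM (SD, n = 3), a 5.24-fold difference (log2 fold change 2.39, standard error 0.05). By log2 fold change *Rflnb* ranked 63 among all genes tested, where 2.55% had a log2 fold change of at least 1 upward. Its log2 fold change stayed between 2.37 and 2.41 under every alternative fit, including those without each library in turn.

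*Rflna*, the paralogue that encodes refilinA, was counted 5, 5 and 3 times in the vehicle libraries and 36, 38 and 31 times in the TGFβ libraries. Its log2 fold change was 3.10 (standard error 0.27), from a few counts per library. It passed the filter on low counts through its TGFβ libraries alone, so its call as higher is a description. Per kilobase of transcript, *Rflnb* still made up 99.5% ± 0.13 of the refilin mRNA in vehicle and 99.2% ± 0.0656 with TGFβ (SD, n = 3).

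The 5 genes whose pattern over the 6 libraries was closest to that of *Rflnb* were *Sertad4*, *Wisp1*, *Plxna4*, *Cdh10* and *Acan*, out of 10372 genes that averaged 5 CPM or more. Likeness was the root mean square difference of log2 CPM after 0.5 CPM was added, each gene centred on its own vehicle mean. It ran from 0.116 for *Sertad4* and *Wisp1* through 0.169 for *Plxna4* and 0.176 for *Cdh10* to 0.195 for *Acan*. *Cdh10* was at 1.68 ± 0.0707 CPM in vehicle (SD, n = 3), so low that the added 0.5 CPM shrank its difference. Its log2 fold change in the fit was 2.92. *Wisp1*, now also named *Ccn4*, encodes a secreted matricellular protein and went from 145.7 ± 20.4 to 739.4 ± 40.7 CPM (SD, n = 3). *Acan* encodes aggrecan, a proteoglycan of cartilage, and went from 8.14 ± 1.26 to 41.5 ± 6.58 CPM (SD, n = 3). All 5 were chosen for this likeness, so it is a description.

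*Flna* (ENSMUSG00000031328, chromosome X, 74223461 to 74249820, minus strand) encodes filamin A, the main nonmuscle filamin and the partner of refilinB. It was at 2023.6, 1972.4 and 1955.1 CPM in vehicle libraries A, B and C and at 2942.7, 2800.5 and 2517.1 CPM in TGFβ libraries A, B and C. The groups did not overlap, and the TGFβ libraries were spread wider than the vehicle libraries. The means were 1983.7 ± 35.6 and 2753.4 ± 216.6 CPM (SD, n = 3), a log2 fold change of 0.47 (standard error 0.07).

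*Flnc* (ENSMUSG00000068699, chromosome 6, 29433256 to 29461883, plus strand) encodes filamin C, the form of striated muscle. It was at 276.2, 244.8 and 222.1 CPM in vehicle libraries A, B and C and at 320.2, 296.9 and 228.9 CPM in TGFβ libraries A, B and C. TGFβ library C fell inside the vehicle range while A and B lay above it. The means were 247.7 ± 27.2 and 282.0 ± 47.4 CPM (SD, n = 3), and the log2 fold change of 0.19 (standard error 0.13) did not pass the threshold. Without TGFβ library C it was 0.31 and did pass, and with each of the other libraries left out it did not. With the letter of the library as a block it was 0.18 (standard error 0.04) and was past the threshold, with an edgeR adjusted p of 0.00423.

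Set against *Flna* by CPM per kilobase of the longest transcript, there were 12.8, 11.6 and 10.6 *Flnc* per 100 *Flna* in vehicle libraries A, B and C and 10.2, 9.92 and 8.51 in TGFβ libraries A, B and C. All 3 TGFβ values lay below the lowest vehicle value, and the means were 11.7 ± 1.07 and 9.54 ± 0.899 (SD, n = 3).

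Set against its partner within each library, there were 7.44, 7.15 and 7.48 *Rflnb* per 100 *Flna* in vehicle libraries A, B and C, by CPM per kilobase. In TGFβ libraries A, B and C there were 26.5, 28.0 and 29.1. This ratio of mRNA levels went from 7.35 ± 0.182 to 27.9 ± 1.31 (SD, n = 3), and it was highest in TGFβ library C, where both genes were at their lowest within the group.

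The other partners of filamins, and the chaperones that clear damaged filamin, formed a list of 9 tested genes with *Rflna*, of which 4 rose, 1 fell and 4 did not pass, with a median log2 fold change of -0.02, where 20.5% of all genes tested rose and 20.1% fell. The 4 include *Rflna*, which passed the filter on low counts through its TGFβ libraries alone. *Hspb8*, a small heat shock protein, rose by 0.42 on the log2 scale (standard error 0.04, adjusted p = 0.000214), and its partner *Bag3* rose by 0.24 (standard error 0.05, adjusted p = 0.0049), both by the edgeR quasi-likelihood test. *Arhgap24*, which encodes the filamin-bound inhibitor of Rac named FilGAP, fell by 0.45 on the log2 scale (standard error 0.07, edgeR adjusted p = 0.00158). *Hspa8*, the constitutive chaperone, had a log2 fold change of -0.02 (standard error 0.05). The fourth gene that rose was *Fblim1*, which encodes migfilin, with a log2 fold change of 0.21 and an edgeR adjusted p of 0.0217. That call was lost without vehicle library A, vehicle library B or TGFβ library C, with adjusted p of 0.0583, 0.0501 and 0.0661 in edgeR.

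*Actn1* (ENSMUSG00000015143, chromosome 12, 80167547 to 80260371, minus strand) encodes α-actinin-1, which crosslinks actin along stress fibers and at their ends. It was at 893.3, 835.0 and 811.3 CPM in vehicle libraries A, B and C and at 1656.6, 1531.6 and 1518.2 CPM in TGFβ libraries A, B and C. After *Rflnb* this was the largest difference of the 9, with a wide gap between the groups. The means were 846.5 ± 42.2 and 1568.8 ± 76.3 CPM (SD, n = 3), a 1.85-fold difference (log2 fold change 0.89, standard error 0.06). An antisense gene, Gm47766, covers 363 exon bases of *Actn1* and had 0.105% as many counts.

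*Actn4*, the other nonmuscle α-actinin, rose less, from 640.9 ± 14.7 to 785.3 ± 20.4 CPM (SD, n = 3; log2 fold change 0.29, standard error 0.04, edgeR adjusted p = 0.00158). By CPM per kilobase the share of *Actn1* among the α-actinins was 58.5%, 57.4% and 57.3% in vehicle libraries A, B and C and 67.9%, 67.2% and 67.0% in TGFβ libraries A, B and C. *Actn1* thus provided most of the α-actinin mRNA in every library, and a larger part of it in each TGFβ library. The muscle form *Actn2* was too low to test.

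Among 11 tested genes of a list of α-actinin paralogues and PDZ-LIM partners, 5 rose, 2 fell and 4 did not pass. Of all genes tested, 20.5% rose and 20.1% fell. The median log2 fold change of the list was 0.29. *Palld*, which encodes the stress fiber protein palladin, rose from 116.0 ± 6.69 to 233.3 ± 32.2 CPM (SD, n = 3; log2 fold change 1.01, standard error 0.10, edgeR adjusted p = 0.000197). Of the PDZ-LIM genes, whose proteins dock on α-actinin, *Pdlim7* rose by 0.75 and *Pdlim1* by 0.62 on the log2 scale (edgeR adjusted p of 5.05e-05 and 6.29e-05). *Pdlim3* fell by 1.14, from 174.3 ± 14.6 to 78.9 ± 9.33 CPM (SD, n = 3), and *Pdlim2* fell by 0.59 (edgeR adjusted p of 8.53e-05 and 0.00125). The fifth that rose was *Synpo*, which encodes the α-actinin partner synaptopodin, with a log2 fold change of 0.35 (standard error 0.07, edgeR adjusted p = 0.00529).

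*Zyx* (ENSMUSG00000029860, chromosome 6, 42349630 to 42360213, plus strand) encodes zyxin, a LIM protein that recruits Ena/VASP proteins to strained actin. It was at 292.0, 243.4 and 232.1 CPM in vehicle libraries A, B and C and at 462.3, 372.9 and 364.3 CPM in TGFβ libraries A, B and C. The groups did not overlap, and in each of them library A stood clear of the other two. The means were 255.8 ± 31.9 and 399.8 ± 54.3 CPM (SD, n = 3), a 1.56-fold difference (log2 fold change 0.64, standard error 0.11). It had the widest range of the 5 genes past the threshold, from 0.53 to 0.75 on the log2 scale over the alternatives.

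The zyxin family, taken here as *Zyx*, *Lpp*, *Trip6*, *Ajuba*, *Limd1*, *Wtip* and *Fblim1*, was also given as shares of its summed CPM per kilobase. This sum was 215.0 ± 6.29 in vehicle and 271.7 ± 18.8 with TGFβ (SD, n = 3). *Fblim1*, listed above with the filamin partners, made up 22.2% ± 1.92 of it in vehicle and 20.4% ± 1.94 with TGFβ (SD, n = 3). The share of *Zyx* was 37.3% ± 3.69 in vehicle and 46.0% ± 3.0 with TGFβ, and that of *Trip6* 12.1% ± 0.618 and 8.12% ± 0.619 (SD, n = 3). *Ajuba*, whose protein also acts in Hippo signaling, rose by 0.78 on the log2 scale (standard error 0.06, edgeR adjusted p = 7.33e-05), while *Trip6* fell by 0.24 and *Limd1* by 0.21 (edgeR adjusted p of 0.0043 and 0.00481). *Lpp*, the closest relative of zyxin, had a log2 fold change of 0.11 (standard error 0.09, edgeR adjusted p = 0.343). Without TGFβ library C, the change of *Lpp* was 0.20 with an edgeR adjusted p of 0.0258.

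In the list of 10 genes of the zyxin family, the CRP proteins and Ena/VASP, 4 rose, 2 fell and 4 did not pass. The shares over all genes tested were 20.5% higher and 20.1% lower, and the list had a median log2 fold change of 0.08. *Csrp2*, which encodes the LIM protein CRP2 of smooth muscle, had the largest change of the list, from 102.9 ± 6.31 to 262.6 ± 12.9 CPM (SD, n = 3; log2 fold change 1.35, standard error 0.06, edgeR adjusted p = 7.81e-06). *Csrp1* and *Vasp* rose by 0.26 and 0.24 on the log2 scale (edgeR adjusted p of 0.0111 and 0.0047).

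**Figure D2:**
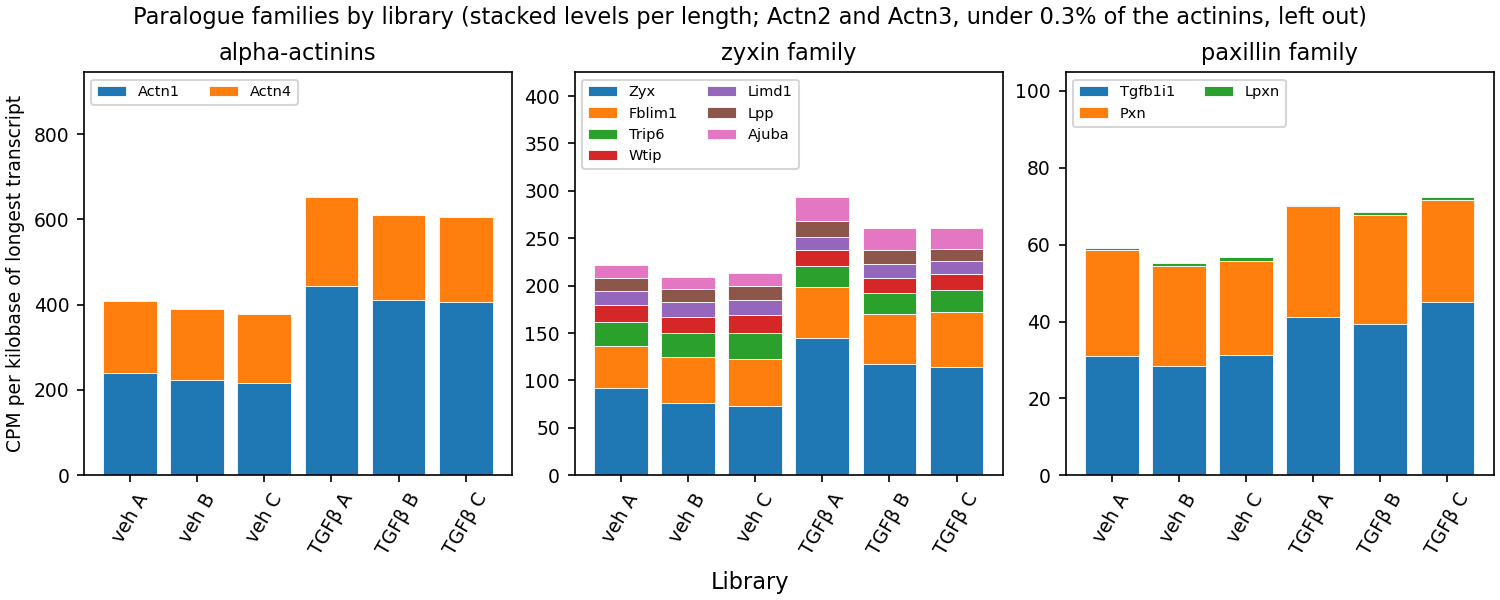
Stacked levels of paralogues in CPM per kilobase of the longest transcript (y axis) in each library (x axis) for the α-actinins, zyxin family and paxillin family. Stacks are taller in all 3 TGFβ libraries, the *Actn1* part of the α-actinins grows from 57.7% to 67.4% and *Tgfb1i1* grows beside *Pxn*.

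*Tln1* (ENSMUSG00000028465, chromosome 4, 43531519 to 43562691, minus strand) encodes talin 1, which activates integrins and carries force to actin. It was at 862.6, 850.6 and 859.4 CPM in vehicle libraries A, B and C and at 900.5, 864.5 and 793.7 CPM in TGFβ libraries A, B and C. The TGFβ libraries lay on both sides of the vehicle libraries. The means were 857.5 ± 6.22 and 852.9 ± 54.3 CPM (SD, n = 3), with a log2 fold change of -0.01 (standard error 0.06) that changed sign between alternatives, from -0.05 to 0.03. *Creb3*, which overlaps *Tln1* by 360 exon bases on the opposite strand, had 11.2% as many counts, but 0.204% of the 75-base windows of *Tln1* are shared.

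*Tln2* had a log2 fold change of -0.14 (standard error 0.09, edgeR adjusted p = 0.249; 0.00524 with the letter as a block), and *Tln1* made up 86.1% ± 1.0 of talin mRNA per kilobase in vehicle and 87.2% ± 0.562 with TGFβ (SD, n = 3). In a list of 12 tested genes of the talin paralogue, the kindlins and the regulators of talin, 1 rose, 2 fell and 9 did not pass. Over all genes tested 20.5% rose and 20.1% fell, and the median log2 fold change of this list was -0.12. With the letter as a block, 5 of the 12 fell, *Tln2*, *Fermt3* and *Kank3* being added, against 26.3% of all genes tested in that fit. The gene that rose was *Fermt2*, which encodes kindlin-2, the coactivator of integrins in most cells, by 0.37 on the log2 scale (standard error 0.05, edgeR adjusted p = 0.000878). *Kank1*, whose protein binds talin and links adhesions to microtubules, fell from 68.8 ± 3.68 to 36.1 ± 2.57 CPM (SD, n = 3; log2 fold change -0.93, standard error 0.06, edgeR adjusted p = 3.88e-05). *Apbb1ip*, which encodes the talin recruiter RIAM, fell by 0.80 (standard error 0.08, edgeR adjusted p = 0.000202).

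*Vcl* (ENSMUSG00000021823, chromosome 14, 20929398 to 21033676, plus strand) encodes vinculin. It was at 436.6, 425.9 and 440.3 CPM in vehicle libraries A, B and C and at 439.2, 408.5 and 400.4 CPM in TGFβ libraries A, B and C. TGFβ library A lay among the vehicle libraries and the other two lay below them. The means were 434.3 ± 7.5 and 416.0 ± 20.5 CPM (SD, n = 3), with a log2 fold change of -0.06 (standard error 0.05) that did not pass the threshold. On the opposite strand, *Ap3m1* shares 2090 exon bases with *Vcl*, and 38.9% of the 75-base windows of the longest *Vcl* transcript also occur, on either strand, in *Ap3m1*. *Ap3m1* had 16.0% as many counts as *Vcl* and rose by 0.32 on the log2 scale (edgeR adjusted p = 0.00407), and whether counting used the strand was not given in the sources used here.

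Of 7 vinculin partners and tensins, 1 rose, 5 fell and 1 did not pass, against 20.5% of all genes tested higher and 20.1% lower. Their median log2 fold change was -0.45. *Sorbs2* and *Sorbs3* encode adaptor proteins that bind vinculin. *Sorbs2* fell from 115.6 ± 7.5 to 29.6 ± 4.7 CPM (SD, n = 3; log2 fold change -1.97, standard error 0.11, edgeR adjusted p = 1.65e-05), and *Sorbs3* fell by 0.65 on the log2 scale (edgeR adjusted p = 0.000231). Tensins bind integrin tails in adhesions, and they split: *Tns1* rose from 733.4 ± 71.2 to 1269.1 ± 189.6 CPM (SD, n = 3; log2 fold change 0.79, edgeR adjusted p = 0.00147). *Tns2*, *Tns3* and *Tns4* fell by 0.45, 0.38 and 1.20 on the log2 scale (edgeR adjusted p of 0.000154, 0.00506 and 0.00545).

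Against *Vcl* in the same library, *Actn1* stood at 288.6, 276.6 and 259.9 per 100 in vehicle libraries A, B and C and at 532.0, 528.9 and 534.8 per 100 in TGFβ libraries A, B and C, by CPM per kilobase. The ratio of these mRNA levels was 275.0 ± 14.4 in vehicle and 531.9 ± 2.96 with TGFβ (SD, n = 3). *Vcl* per 100 *Tln1* was 80.7 ± 0.929 in vehicle and 77.8 ± 2.55 with TGFβ (SD, n = 3), with overlapping libraries.

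*Pxn* (ENSMUSG00000029528, chromosome 5, 115506676 to 115555987, plus strand) encodes paxillin. It was at 104.1, 98.3 and 93.0 CPM in vehicle libraries A, B and C and at 108.3, 107.1 and 100.1 CPM in TGFβ libraries A, B and C. TGFβ library C lay inside the vehicle range. The means were 98.5 ± 5.56 and 105.1 ± 4.43 CPM (SD, n = 3), and the log2 fold change of 0.09 (standard error 0.05) did not pass the threshold.

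*Tgfb1i1* encodes Hic-5, the paxillin relative found in myofibroblasts and smooth muscle, and it rose from 114.2 ± 5.94 to 158.5 ± 10.8 CPM (SD, n = 3; log2 fold change 0.47, standard error 0.06, edgeR adjusted p = 0.000787). By CPM per kilobase, *Pxn* per 100 *Tgfb1i1* was 89.6, 92.2 and 79.2 in vehicle libraries A, B and C and 69.7, 72.4 and 59.2 in TGFβ libraries A, B and C. All 3 TGFβ values lay below the lowest vehicle value.

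Of 17 genes of the paxillin family and FAK-Src signaling, 8 rose, 2 fell and 7 did not pass. The shares of all genes tested were 20.5% higher and 20.1% lower, and the median log2 fold change of the 17 was 0.09. *Nedd9*, a scaffold of the Cas family, rose from 160.2 ± 5.65 to 315.9 ± 7.03 CPM (SD, n = 3; log2 fold change 0.98, standard error 0.04, edgeR adjusted p = 8.04e-06), and its relative *Bcar1*, which encodes p130Cas, rose by 0.26 (edgeR adjusted p = 0.00976). *Ptk2*, which encodes focal adhesion kinase, rose by 0.42 on the log2 scale (standard error 0.04, edgeR adjusted p = 0.000155), while *Src* had a log2 fold change of 0.03 (edgeR adjusted p = 0.494). *Git1* and *Arhgef7*, whose proteins form a complex that paxillin binds, fell by 0.23 and 0.27 (edgeR adjusted p of 0.00512 and 0.0039). *Pak2*, a kinase that this complex recruits, rose by 0.17 (edgeR adjusted p = 0.00711).

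The remaining 3 of the 8 calls did not hold under every alternative. *Ptk2b* (log2 fold change 0.37, edgeR adjusted p = 0.0337) lost its call without vehicle library B, vehicle library C, TGFβ library A or TGFβ library C, with edgeR adjusted p of 0.105, 0.0932, 0.117 and 0.0583. *Pak1* (0.31 and 0.0201) lost its call without vehicle library B, at 0.0713. *Crk* (0.11 and 0.0416) lost its call in 10 of 12 alternatives, among them those without each library, where its edgeR adjusted p ran from 0.0633 to 0.142.

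*Ilk* (ENSMUSG00000030890, chromosome 7, 105736592 to 105742925, plus strand) encodes integrin-linked kinase, a scaffold that holds PINCH and parvin at the integrin tail. It was at 196.0, 197.5 and 196.3 CPM in vehicle libraries A, B and C and at 229.4, 222.3 and 219.0 CPM in TGFβ libraries A, B and C. The vehicle libraries were nearly level, with a coefficient of variation of 0.409%, and all TGFβ libraries lay above them. The means were 196.6 ± 0.805 and 223.6 ± 5.33 CPM (SD, n = 3), a 1.14-fold difference (log2 fold change 0.19, standard error 0.04). The value of *Ilk* is uncertain, because 78.8% of the 75-base windows of its longest transcript also occur, on either strand, in transcripts of other genes. Among these genes were *Taf10*, *Rrp8* and Gm6263, of which Gm6263 does not overlap the exons of *Ilk*. *Taf10* and *Rrp8* overlap *Ilk* on the opposite strand, with 26.6% and 9.65% as many counts as *Ilk*, and had log2 fold changes of 0.16 (edgeR adjusted p = 0.0638) and 0.60 (edgeR adjusted p = 0.000525). The part of *Taf10*, *Rrp8* and Gm6263 in the difference of *Ilk* was not tested.

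In the list of 7 other genes of the ILK-PINCH-parvin complex, 2 rose, 3 fell and 2 did not pass. Over all genes tested 20.5% rose and 20.1% fell, and the median log2 fold change of the 7 was -0.18. *Parva*, which encodes the main parvin of these cells, fell from 474.6 ± 11.0 to 394.1 ± 2.72 CPM (SD, n = 3; log2 fold change -0.27, standard error 0.04, edgeR adjusted p = 0.00147). *Lims1*, which encodes PINCH1, had a log2 fold change of 0.00 (standard error 0.05), and the less abundant *Lims2*, which encodes PINCH2, rose by 0.56 (edgeR adjusted p = 0.000293). *Rsu1*, whose protein binds PINCH1, and *Ilkap*, a phosphatase that binds integrin-linked kinase, fell by 0.18 and 0.30 on the log2 scale (edgeR adjusted p of 0.00978 and 0.00167). *Parvg* was at 0.526 ± 0.0859 CPM in vehicle and 1.35 ± 0.749 CPM with TGFβ (SD, n = 3; edgeR adjusted p = 0.031), and its call was lost without vehicle library A, B or C or TGFβ library C, with edgeR adjusted p of 0.0763, 0.0634, 0.0849 and 0.0534. *Ilk* per 100 *Parva*, by CPM per kilobase, went from 106.8 ± 2.49 to 146.2 ± 3.04 (SD, n = 3), without overlap. The uncertainty given above for the value of *Ilk* applies to this ratio too.

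**Figure D3:**
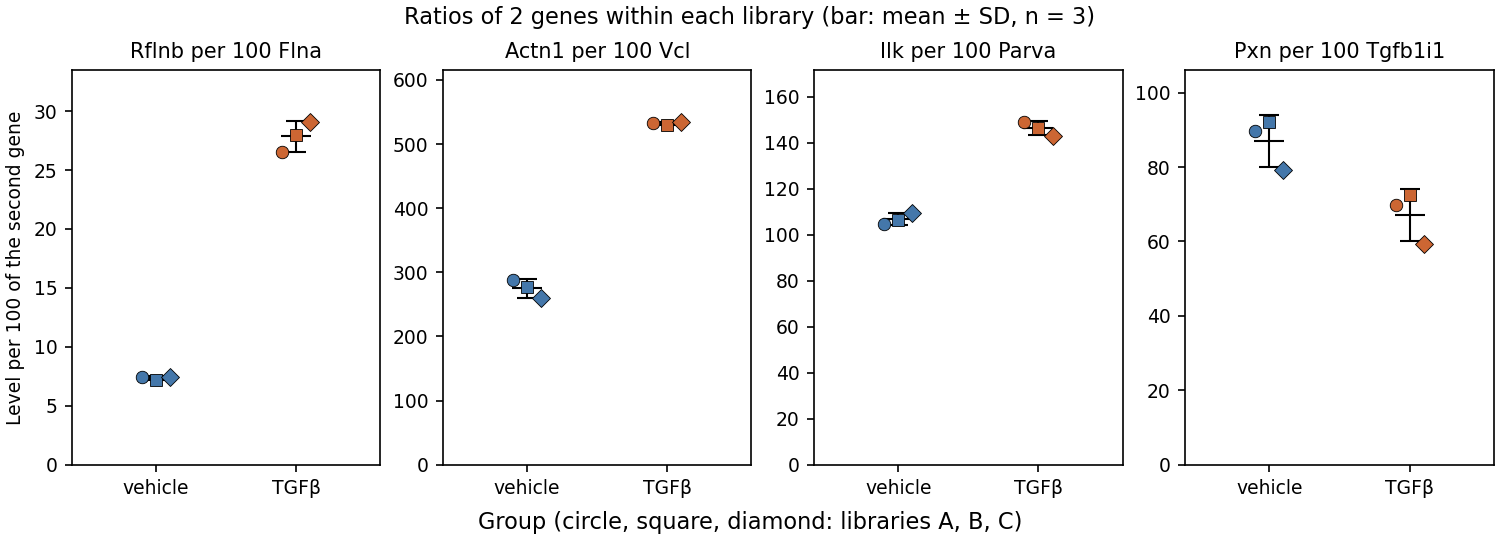
Ratios of mRNA levels per length within each library, as the level of the first gene per 100 of the second (y axes start at 0), for vehicle and TGFβ (x axis), with the mean ± SD of 3 libraries. In all 4 panels the groups are apart, with *Rflnb* per 100 *Flna* at 7.15 to 7.48 in vehicle and 26.5 to 29.1 with TGFβ. The panels with *Ilk* and *Vcl* are uncertain, since parts of these transcripts also occur in other genes.

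Actin bundlers and crosslinkers outside these families served as a further list, of which 9 were tested: 1 rose, 3 fell and 5 did not pass, with a median log2 fold change of -0.10. *Fscn1*, which encodes fascin, the bundler of filopodia, fell from 453.8 ± 15.7 to 303.6 ± 14.5 CPM (SD, n = 3; log2 fold change -0.58, standard error 0.05, edgeR adjusted p = 0.000122). *Anln*, which encodes anillin of the cleavage furrow, and *Marcks*, a membrane-bound actin crosslinker, fell by 0.47 and 0.27 on the log2 scale (edgeR adjusted p of 0.0019 and 0.0102). The gene that rose was *Dbn1*, which encodes drebrin, with an edgeR adjusted p of 0.0499 that stayed past the threshold in 3 of 12 alternatives. Of the fits with a library left out, its call held without TGFβ library C alone (edgeR adjusted p = 0.0196), and it was lost without TGFβ library B at 0.153, vehicle library A at 0.0957, B at 0.102, C at 0.127 and TGFβ library A at 0.0962. Over all 8 lists, 26 of 82 tested genes rose, 20 fell and 36 did not pass, against 20.5% higher and 20.1% lower over all genes tested, with a median log2 fold change of -0.02. Nothing is read from these counts, since the lists were chosen with earlier results of these data known.

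**Figure D4:**
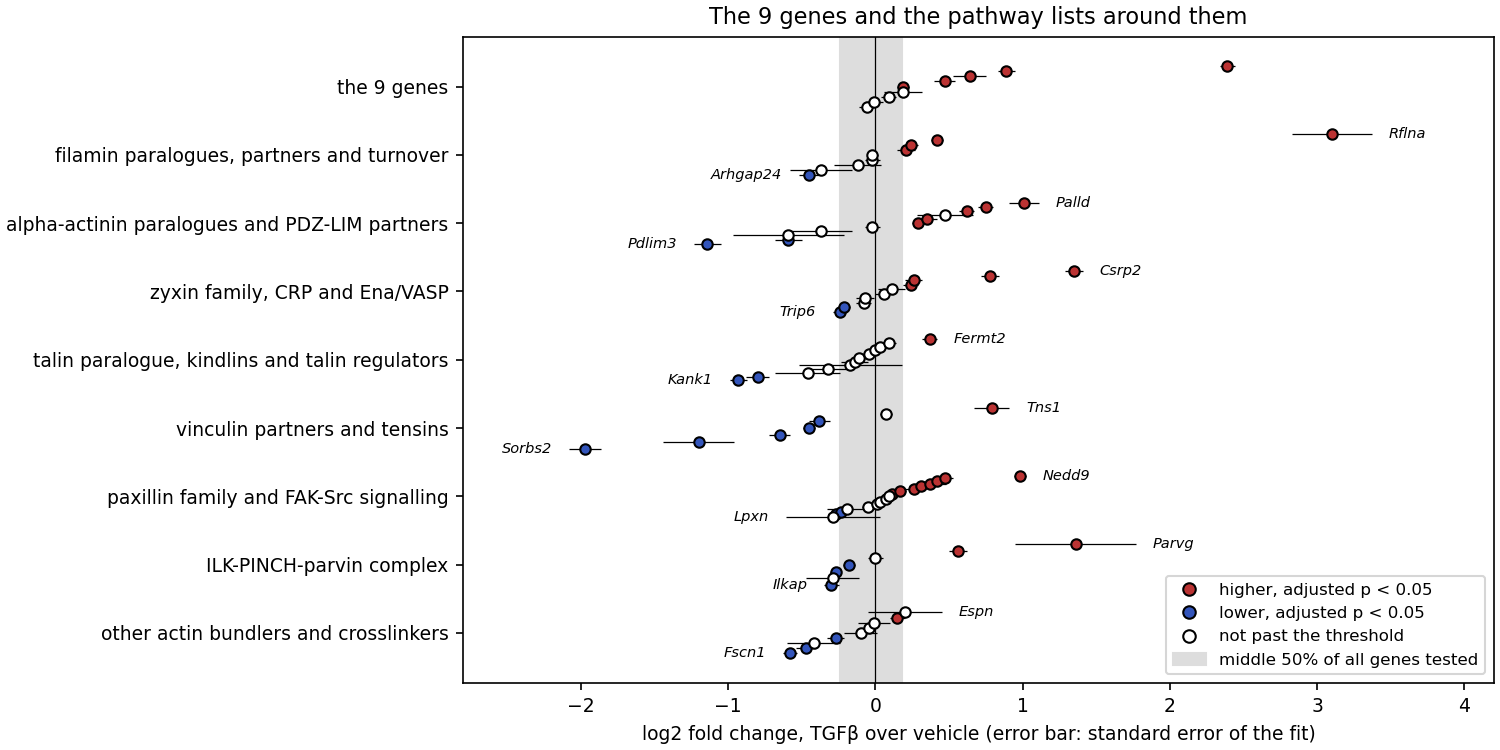
log2 fold change of TGFβ over vehicle with its standard error (x axis) for the 9 genes and for the genes of the 8 lists (rows), filled where past the threshold, over a gray band for the middle 50% of all genes tested (-0.242 to 0.183). The α-actinin list reaches from *Pdlim3* at -1.14 to *Palld* at 1.01. The vinculin and tensin list has 5 genes below 0 past the threshold, where 20.1% of all genes tested fell past it. The lists were chosen with earlier results of these data known, so this count is a description.

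Compared per length, the order of the 9 genes shifted with TGFβ. In vehicle it ran from *Flna* at 234.6 ± 4.21 and *Actn1* at 226.7 ± 11.3 CPM per kilobase, through *Tln1* at 102.2 ± 0.741, *Ilk* at 86.3 ± 0.353, *Vcl* at 82.5 ± 1.42 and *Zyx* at 80.3 ± 9.99, to *Flnc* at 27.4 ± 3.01, *Pxn* at 26.2 ± 1.48 and *Rflnb* at 17.3 ± 0.567 (SD, n = 3). In that order the neighbours *Flna* and *Actn1*, *Vcl* and *Zyx*, and *Flnc* and *Pxn* had overlapping libraries. With TGFβ, *Actn1* was first at 420.1 ± 20.4 and *Flna* second at 325.6 ± 25.6, followed by *Zyx* at 125.4 ± 17.0, *Tln1* at 101.6 ± 6.47, *Ilk* at 98.1 ± 2.34, *Rflnb* at 90.5 ± 3.42, *Vcl* at 79.0 ± 3.88, *Flnc* at 31.2 ± 5.25 and *Pxn* at 28.0 ± 1.18 CPM per kilobase (SD, n = 3). Among these, the libraries of *Flnc* and *Pxn*, and of *Tln1* and *Ilk*, overlapped. By this length *Rflnb* was last in vehicle and above *Vcl* with TGFβ, and *Actn1* passed *Flna*. The places of *Ilk* and *Vcl* are uncertain, because 78.8% and 38.9% of their 75-base windows also occur in transcripts of other genes. The part of these windows in the order was not tested. The order depends on the length used: over the union of exons *Actn1* came to 153.0 and *Flna* to 211.0 CPM per kilobase in vehicle, and to 283.5 and 292.9 with TGFβ. Over the union of exons *Rflnb*, at 17.3 in vehicle, was not last but above *Pxn* at 12.0. With TGFβ it was at 90.5 CPM per kilobase of the union of exons, and there the means of *Tln1* at 87.0, *Ilk* at 81.5 and *Zyx* at 74.2 lay below it.

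**Figure D5:**
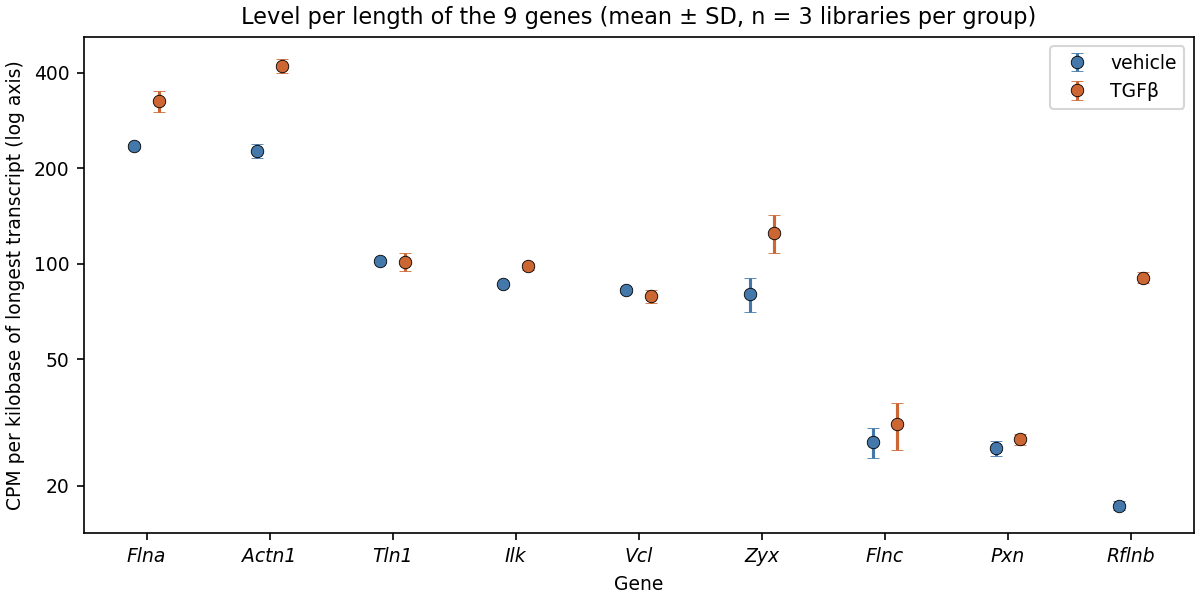
CPM per kilobase of the longest transcript on a log axis (y axis) for the 9 genes in their vehicle order (x axis), as mean ± SD of 3 libraries per group. By this length *Rflnb* is lowest in vehicle at 17.3 and stands at 90.5 with TGFβ, between *Ilk* at 98.1 and *Vcl* at 79.0. The levels of *Ilk* and *Vcl* are uncertain, since parts of their transcripts also occur in other genes.

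Within the TGFβ group the 9 genes shared an order of the libraries. TGFβ library A was the highest for 8 of the 9 and library C the lowest for all 9, where over all genes tested A was highest for 31.9% and C lowest for 36.6%. Vehicle library A was the highest for 7 of the 9, against 34.4% of all genes tested. Long transcripts as a whole leaned the same way in the TGFβ libraries: over 667 genes with a transcript of 8 kb or more, the median deviation from the group mean of log2 CPM was 0.059 in TGFβ library A and -0.092 in library C, and over 1888 genes under 2 kb it was -0.029 and 0.023. *Flna*, *Flnc* and *Tln1* have longest transcripts of 8.46, 9.04 and 8.39 kb. Those of *Vcl*, *Pxn*, *Actn1*, *Rflnb*, *Zyx* and *Ilk* are shorter, at 5.27, 3.76, 3.73, 3.51, 3.19 and 2.28 kb. Over 4157 genes of 2 to 4 kb the median deviation was -0.009 in TGFβ library A and 0.01 in library C. In vehicle library A it was -0.026 over the genes of 8 kb or more. The part of transcript length in these values was not tested.

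Markers of other cells were read beside these genes. Of 8 smooth muscle genes, 5 rose (*Smtn*, *Cnn1*, *Lmod1*, *Tagln* and *Acta2*), against 20.5% of all genes tested. The summed level of the 8 was 2181.4 to 2618.9 CPM in vehicle and 4529.0 to 4804.4 CPM with TGFβ. *Myh11*, *Des* and *Myocd* did not pass without the block. *Myh11* was at 27.8 ± 4.21 CPM in vehicle and 23.3 ± 4.39 CPM with TGFβ (SD, n = 3; log2 fold change -0.26, standard error 0.15). *Des* was at 11.9 ± 5.34 and 17.3 ± 13.6 CPM (SD, n = 3), and the regulator *Myocd* was under 1 CPM in every library. Fibroblasts that become myofibroblasts also express most of the 8 genes. The part of smooth muscle cells in the differences above was not tested. The sum of 6 pericyte markers went from 305.2 to 384.5 CPM in vehicle to 206.1 to 274.2 CPM with TGFβ. That fall was the fall of *Notch3*, from 206.6 ± 16.7 to 57.3 ± 7.58 CPM (SD, n = 3). *Cspg4* rose from 19.5 ± 3.21 to 53.3 ± 12.0 CPM (SD, n = 3), and *Mcam*, *Rgs5*, *Abcc9* and *Kcnj8* did not pass. In 8 endothelial markers 0 passed without the block, with sums of 458.5 to 714.2 CPM in vehicle and 417.8 to 581.5 CPM with TGFβ. The sums were 240.7 to 344.0 and 209.3 to 312.0 CPM for leukocytes (6 tested), 38.7 to 60.3 and 27.6 to 40.7 CPM for cardiomyocytes (3 tested), and 25.7 to 99.1 and 17.6 to 53.0 CPM for mesothelium (7 tested), with 0 genes past the edgeR threshold in each without the block. Some markers differed by letter alike in both groups. Mesothelial *Lrrn4* was at 21.5, 1.65 and 5.83 CPM in vehicle libraries A, B and C and at 7.38, 1.29 and 2.03 CPM in TGFβ libraries A, B and C. Endothelial *Cdh5* was at 156.0, 173.0 and 271.4 CPM and at 125.0, 134.0 and 202.5 CPM, while *Tek* was highest in library B of both groups. The part of such differences in the order of the libraries for the 9 genes was not tested. With the letter of the library as a block, 5 of the 8 endothelial markers fell (*Pecam1*, *Cdh5*, *Kdr*, *Tie1* and *Cldn5*) and *Tek* rose. The block fit called 26.3% of all genes tested as lower and 26.0% as higher. There *Cdh5* had a log2 fold change of -0.37 (standard error 0.04, edgeR adjusted p = 2.8e-06). In that fit the mesothelial genes *Upk3b* and *Lrrn4* fell by 0.97 and 1.39 on the log2 scale (edgeR adjusted p of 4.57e-08 and 4.35e-06) and *Msln* rose. *Des* and *Myocd* of the smooth muscle genes rose and *Myh11* fell, and the cardiomyocyte gene *Tnnt2* and the leukocyte gene *Lyz2* fell. *Msln* was counted 16 to 34 times and *Myocd* 10 to 25 times per library, so their calls rest on few reads. *Des* was at 6.88 CPM in vehicle library B and lower, at 5.84 CPM, in TGFβ library B. The part of these other cells in the differences of the 9 genes was not tested. The cardiomyocyte genes *Myh6*, *Myl2*, *Myl7*, *Tnni3*, *Ryr2* and *Actc1* were under 1 CPM in every library. Of 10 cardiac fibroblast markers, 5 fell (*Tcf21*, *Tbx20*, *Hand2*, *Dcn* and *Pdgfra*) and 0 rose without the block, where 20.1% of all genes tested fell. With the block *Gata4* fell and *Col1a1* and *Col1a2* rose as well.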

How the data were processed

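RNA-seq libraries from 3 vehicle and 3 TGFβ samples were prepared by the authors with a stranded poly(A) kit, sequenced as single-end reads of 75 bases and aligned to mm10. The deposited table gives whole read counts per gene and library without normalization. The aligner, the counter, its use of strand and the annotation were not given in the sources used here. The columns of the authors' own comparison (mean, log2 fold change, standard error, statistic, p-value and adjusted p) were not used, and 0 columns of per-sample values were left aside. The ATAC-seq data were not analysed here.

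Counts were fitted with edgeR 4.0.16 in R 4.3.3 (TMM, filterByExpr, quasi-likelihood test, Benjamini-Hochberg adjustment over 14334 genes, threshold 0.05). The standard error is the log2 fold change over the square root of the F statistic. The libraries held 27851677 to 31072338 counts, and the biological coefficient of variation was 7.97%. Alternatives were DESeq2 1.42.0, limma-voom (limma 3.58.1), other scalings and filters, each library left out and, added after seeing the data, a block by column order. The fits were tested on simulated data. Lengths, loci and overlaps came from GENCODE M21 (25086 of 25140 identifiers matched) and promoter sequences from RefSeq (GRCm38.p6). The 9 genes and the gene lists were chosen with earlier results of these data known. The genes named are the 9, those of the lists, *Acta2* as a check of treatment, genes that overlap the 9, and the 5 closest to *Rflnb* in pattern. Some results that the lists would take in are not reported here, and the list counts leave them out.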

Additional observations from a re-analysis of the deposited data

How the results depend on the processing

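Of all genes tested, 5828 passed the adjusted p of 0.05. At an adjusted p of 0.01 the number was 3595 (1855 higher and 1740 lower with TGFβ), and with a log2 fold change beyond 1 as well it was 971 (346 and 625). It ranged from 4489 to 5481 without each library in turn and was 5020 with DESeq2. Calls of the 9 genes are a description, since the genes were chosen on this comparison: in 12 fits *Rflnb*, *Actn1*, *Zyx*, *Flna* and *Ilk* passed each time, *Vcl*, *Tln1* and *Pxn* never and *Flnc* once. In these 12 fits the number of calls in each of the 8 lists stayed within 1.5 times. No called change in the lists reversed. Scaling with upper quartiles moved the median of all genes to -0.02.

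The count columns carry no replicate numbers, so the design does not pair them by label. With a block by the order of the columns, chosen after seeing the data, 7497 genes passed (3727 higher and 3770 lower). That was 52.3% of all genes tested, against 40.7% without the block. Of the 9 genes 6 passed, with *Flnc* added. *Pxn* stayed short of the threshold at an edgeR adjusted p of 0.0532. The block raised the calls in the talin list from 3 to 6, and over all 8 lists it added 8 calls, lost 0 and turned 0. The added genes were *Tln2*, *Fermt3*, *Kank3*, *Dock1*, *Parvb*, *Lcp1* and *Sptbn1*, which fell, and *Ldb3*, which rose. Over the marker lists, with 48 genes tested, the block added 17 calls and lost 0, beside the rise from 40.7% to 52.3% over all genes tested. The pairing is a hint from the data, not from the design.

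Depth does not limit the 9 genes, whose lowest count was 1736. Other genes with a call rest on few reads, such as *Rflna*, *Parvg*, *Msln* and *Myocd*, counted at most 38, 63, 34 and 25 times in any library. *Ldb3*, *Fermt3* and *Tns4* were counted at most 99, 123 and 229 times.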
